A study of Mus musculus with 2 samples.

Results

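The 38 Hox genes examined here lie in 4 clusters, 10 in HoxA, 10 in HoxB, 9 in HoxC and 9 in HoxD, among 22367 protein-coding genes of the annotation. They were chosen by name, and a p300 peak was assigned to them when its midpoint lay within 250 kb of the transcription start site of any of them. Of the 6629 deposited p300 peaks, 7 met this rule. The peaks come from p300 ChIP-seq of the dorsal cerebral wall of Swiss Webster mouse embryos at E14.5, a tissue that holds the germinal zones and the cortical plate of the future neocortex. The tissue gave 1 ChIP library and 1 input library without replicates, and the labels name no mutation or treatment. No RNA was measured in the series, so whether any Hox gene is silent in this tissue was not tested. The comparisons below set peak positions against random placement on the genome, protein-coding genes, other gene lists or the whole peak list.

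Hox genes encode homeodomain transcription factors that give cells their position along the body axis. Their order within a cluster follows the order of their expression domains from hindbrain to tail, and the forebrain lies in front of all these domains. Polycomb complexes hold the clusters in repressed chromatin where the genes are off, whereas p300 is an acetyltransferase co-activator found at active enhancers. HoxD and HoxA are flanked by gene deserts known to hold enhancers for limb and other trunk tissues.

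5 of the 7 peaks carry the account below, and the central 200 bases of each are shown, on the plus strand of mm9. They are the only peak inside a cluster, beside Hoxa13, the peaks nearest to HoxB, HoxC and HoxD, named here after Skap1, Calcoco1 and Mtx2, and the widest of the set, beyond Lnp. Capitals mark matches on either strand to 8 short strings, namely TAATTA (homeodomain core), TGATTNAT (Hox and Pbx composite), TGACAG (Meis core), CAGCTG and CAGATG (E-boxes), TTGGCA (Nfi), GTTGCC (Rfx) and AGGTCA (nuclear receptors).
Hoxa13 peak, chr6:52207101-52207300: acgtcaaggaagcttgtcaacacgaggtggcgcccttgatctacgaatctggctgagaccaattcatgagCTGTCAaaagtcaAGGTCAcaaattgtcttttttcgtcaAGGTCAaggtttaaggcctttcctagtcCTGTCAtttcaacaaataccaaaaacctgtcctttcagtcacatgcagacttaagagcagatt
Skap1 peak, chr11:96362441-96362640: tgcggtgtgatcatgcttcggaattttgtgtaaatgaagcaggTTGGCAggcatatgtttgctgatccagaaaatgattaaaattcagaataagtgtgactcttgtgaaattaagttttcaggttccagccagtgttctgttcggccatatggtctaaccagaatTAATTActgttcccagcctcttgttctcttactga
Calcoco1 peak, chr15:102576871-102577070: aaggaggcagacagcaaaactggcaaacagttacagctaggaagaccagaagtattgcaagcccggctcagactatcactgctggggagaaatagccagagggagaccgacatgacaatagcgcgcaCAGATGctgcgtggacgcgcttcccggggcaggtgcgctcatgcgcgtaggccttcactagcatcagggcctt
Lnp peak, chr2:74288735-74288934: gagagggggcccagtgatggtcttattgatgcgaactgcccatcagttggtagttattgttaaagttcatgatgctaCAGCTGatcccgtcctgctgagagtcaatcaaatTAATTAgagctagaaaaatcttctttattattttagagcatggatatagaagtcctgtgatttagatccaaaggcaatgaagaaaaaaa
Mtx2 peak, chr2:74722470-74722669: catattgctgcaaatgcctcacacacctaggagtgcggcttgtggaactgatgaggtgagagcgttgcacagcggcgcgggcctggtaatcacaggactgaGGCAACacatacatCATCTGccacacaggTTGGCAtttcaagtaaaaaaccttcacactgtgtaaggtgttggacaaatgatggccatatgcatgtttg

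Over their whole length the 7 peaks held the Hox and Pbx composite in 0 cases, against 19.0% of all 6629 peaks. The homeodomain core was present in 4 of the 7, against 46.7% of all peaks, and the Meis core also in 4, against 64.2%. CAGATG occurred in 6 of the 7 (74.8% of all peaks) and CAGCTG in 2 (56.3%), while TTGGCA and AGGTCA occurred in 4 each (60.7% and 43.2%) and GTTGCC in 2 (34.5%). The Hoxa13 peak held 2 Meis cores and 2 AGGTCA strings, all within the bases shown above, and none of the other strings. The Lnp peak was the richest, with 7 CAGATG, 4 Meis cores, 4 AGGTCA and 3 homeodomain cores, although its greater width gave it more bases to hold them. A match is a run of letters and not a measured binding site, and with 7 peaks the shares describe these peaks alone.

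Counted cluster by cluster, the Hox loci held about as many p300 peaks as random placement gives. The windows of HoxA held 1 peak against 1.54 expected, a ratio of 0.648 with an exact Clopper-Pearson 95% interval of 0.0164 to 3.61. Those of HoxB held 2 against 1.74 (ratio 1.15, interval 0.139 to 4.15), those of HoxC 1 against 1.59 (0.629, 0.0159 to 3.51) and those of HoxD 3 against 1.54 (1.95, 0.402 to 5.69). Together the 4 clusters held 7 peaks against 6.41 expected in 2.47 Mb, a ratio of 1.09 with an interval of 0.439 to 2.25. The interval of every cluster spans the expected value, so neither a lack nor an excess of p300 was detectable at a single cluster. The intervals cover counting error only and treat peaks as independent, which they are not, because p300 peaks lie in groups: joining those under 5 kb apart turns the 6629 into 6109.

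**Figure D1:**
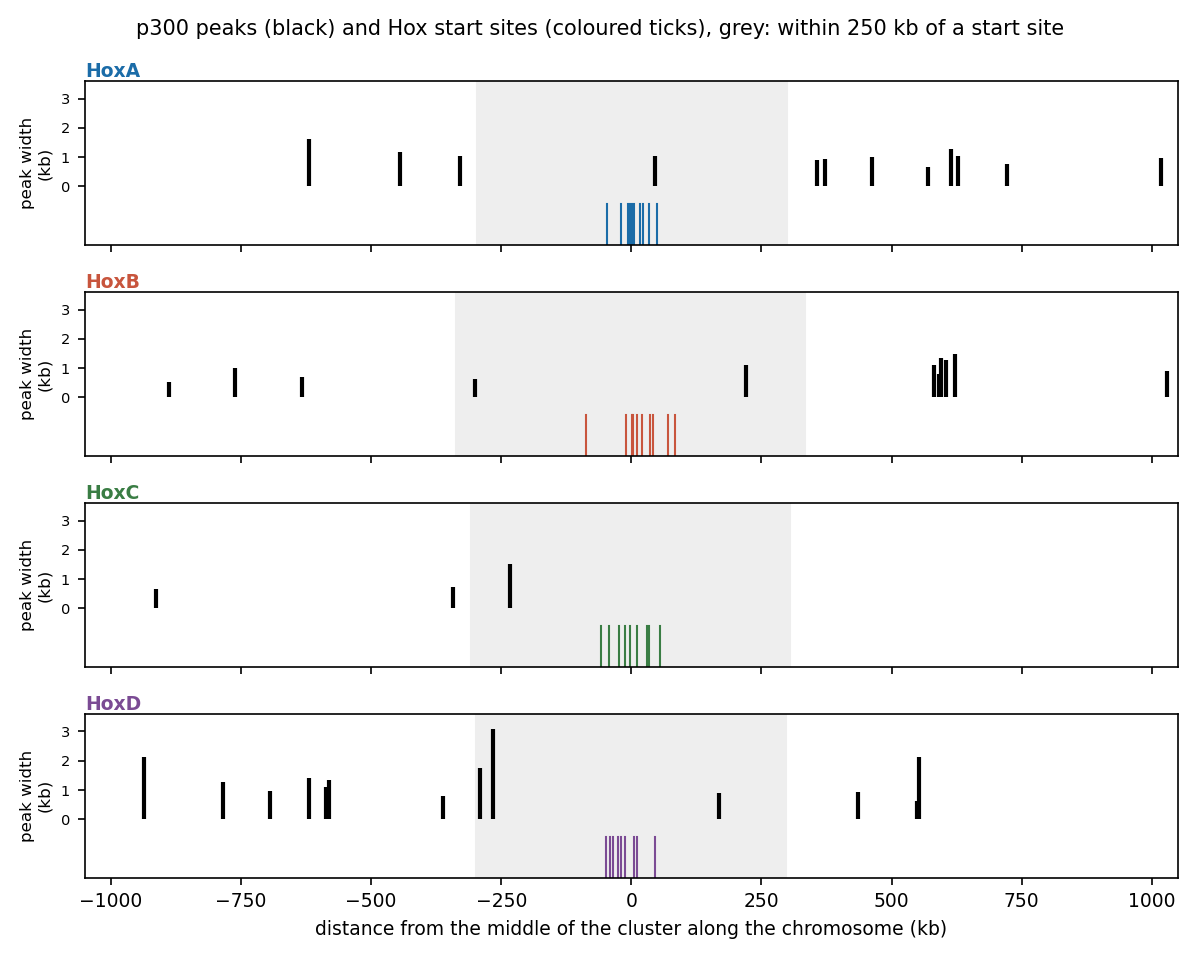
p300 peaks within about 1 Mb of the HoxA, HoxB, HoxC and HoxD clusters, with distance from the middle of each cluster on the x axis (kb) and the width of each peak as the height of its bar (kb). Coloured ticks are the start sites of the 38 genes and grey marks the windows within 250 kb of them; 1 black bar, in HoxA, stands among the ticks, and the HoxC panel holds 3 bars in all.

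Within the clusters themselves, taken from the outermost gene end on one side to that on the other, the only p300 peak was that beside Hoxa13. The 4 stretches span 485.041 kb in sum and would hold 1.26 peaks under random placement, against the 1 observed (95% interval 0.0253 to 5.57). HoxA (chr6:52112350-52210874) held this peak against 0.255 expected, and HoxB (chr11:96055630-96229570), HoxC (chr15:102751534-102867274) and HoxD (chr2:74506367-74603200) held 0 against 0.451, 0.300 and 0.251. The 95% interval of a count of 0 runs to 3.69 peaks, above each of these expectations, so the absence of p300 from the bodies of HoxB, HoxC and HoxD could not be shown. How far the removal of promoter and exon peaks by the authors changed these counts was not tested. Only 29.3% of the cluster bodies lies outside exons and more than 2.5 kb from an annotated start, against 88.7% of the genome, and for HoxA and HoxD the figure is 14.0% and 11.6%. Counting only that space, 0.397 peaks would be expected in the 4 bodies, against the 1 observed, the Hoxa13 peak. Exons were then widened by 508 bp, the distance from the midpoint to the edge of a median peak. In that narrower space 0.383 peaks would be expected in the 4 bodies. The Hoxa13 peak falls outside it, so no peak is left in the bodies to set against 0.383. Unique sequence was not scarcer at the clusters, where 93.9% to 96.1% of 36-base words in the windows occur once in the assembly, against 85.3% genome-wide. The bodies are rich in G and C (48.9% to 49.95%, genome 41.8%) and in CpG (20.9 to 29.9 per kb, genome 8.34).

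The peak inside HoxA sits at the posterior end of the cluster. It spans chr6:52206679-52207721 (1043 bp, close to the median width of 1017 bp) and has a GC content of 36.6%, at the 9.26 percentile of all peaks. Its midpoint is intergenic and 3.67 kb downstream of the start of Hoxa13, which patterns digits and the urogenital tract, and 29 bases at its edge overlap the last exon of that gene. It is the 1 peak that all 10 HoxA genes share within 250 kb. Hoxa11, a gene of the forearm and kidney, starts 10.987 kb from it, and Hoxa10 and Hoxa9, which act in lumbar and thoracic axial patterning, 22.3 and 29.8 kb. From there the distance grows through Hoxa7 (39.7 kb), Hoxa6 (48.5 kb), Hoxa5 (52.6 kb) and Hoxa4 (65.4 kb) to Hoxa2 (91.8 kb), the gene of hindbrain and second-arch identity. Hoxa3, a gene of neck and thymus development, lies at 44.1 kb because its longest coding transcript starts far upstream; it is annotated under 2 identifiers, both with the same 1 peak. The peak would be removed by the widened exclusion above, and HoxA then holds 0 peaks against 1.30 expected. The next peaks are 282.37 kb from Hoxa2, within Skap2, and 306.684 kb from Hoxa13, within Hibadh.

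HoxB had no peak between its genes, and the nearest one lies in a neighbour. An intron of Skap1, which encodes a T cell adaptor, holds a 1093 bp peak (chr11:96361994-96363086) at 135.5 kb from Hoxb1, the gene that specifies a hindbrain rhombomere, and within 250 kb of 9 HoxB genes. Distances to it rise along the cluster, from 149.6 kb for Hoxb2 through 177.9 kb for Hoxb3, 184.5 kb for Hoxb4 and 198.6 kb for Hoxb5 to 229.8 kb for Hoxb9. Hoxb6, Hoxb7 and Hoxb8 fall between, at 208.75, 217.0 and 219.3 kb. Hoxb13, a prostate and tail-end gene set apart from the rest, has another peak as its nearest, at 213.1 kb on the far side in Igf2bp1, an mRNA-binding protein gene. That peak is narrow (639 bp), overlaps 82 exon bases and has an edge 1013 bp from an annotated start, so it lies in space from which peaks were meant to be removed under the annotation used here.

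HoxC was the cluster farthest from p300. Its single peak within 250 kb (chr15:102576222-102577719, 1498 bp) is intergenic, 24.4 kb from Calcoco1, a coactivator and autophagy receptor gene, and 174.6 kb from Hoxc13, a gene of hair and nail. With a GC content of 58.3% and 88 CpG it was richer in G and C than 98.0% of all peaks. It lies within 250 kb of 6 genes, Hoxc13, Hoxc12 (190.2 kb), Hoxc11 (207.9 kb), Hoxc10 (220.3 kb), Hoxc9 (230.5 kb) and Hoxc8 (244.1 kb), of which Hoxc9 and Hoxc8 are known for motor neuron identity in the spinal cord. Hoxc6, Hoxc5 and Hoxc4 lie beyond the limit at 262.9, 267.3 and 287.9 kb, and these are the 3 Hox genes with 0 peaks within 250 kb. No peak follows on the Hoxc4 side: the free stretch runs 917.255 kb from the Calcoco1 peak to the end of the chromosome. The next peak on the other side, near Atf7, is 284.934 kb from Hoxc13.

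HoxD had the most peaks in its windows, all of them outside the cluster. The Lnp peak (chr2:74287291-74290378), in the desert beyond Lnp on the Hoxd13 side, is 3088 bp wide and ranks 27 of 6629 by width. It lies 217.5 kb from Hoxd13, a digit gene, and within 250 kb of 5 HoxD genes. A neighbour of 1752 bp (chr2:74263771-74265522) lies 241.7 kb from Hoxd13 and within reach of Hoxd12 and Hoxd13 only. The Mtx2 peak (chr2:74722127-74723011, 885 bp) is on the opposite side, just beyond Mtx2 and with an edge 2052 bp from an annotated start, 121.5 kb from Hoxd1, a gene of sensory neurons, and within 250 kb of all 9. Going from Hoxd1 along the cluster, its distance is 157.8 kb for Hoxd3, 162.5 kb for Hoxd4, 179.6 kb for Hoxd8 and 186.8 kb for Hoxd9, and it remains the nearest peak up to Hoxd13 at 216.2 kb, where the Lnp peak on the other side is at 217.5 kb. Hoxd10 (193.4 kb), known for lumbar motor neurons, Hoxd11 (202.5 kb) and Hoxd12 (209.6 kb) come between. The next peak beyond Lnp, at 313.579 kb from Hoxd13, falls outside the windows. The regulatory domain of Lnp, 742.231 kb long, held 8 peaks against 1.92 expected (one-sided exact binomial test, adjusted p = 0.0664 over 22367 genes), and that of Mtx2, 890.28 kb, held 4 against 2.31.

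**Figure D2:**
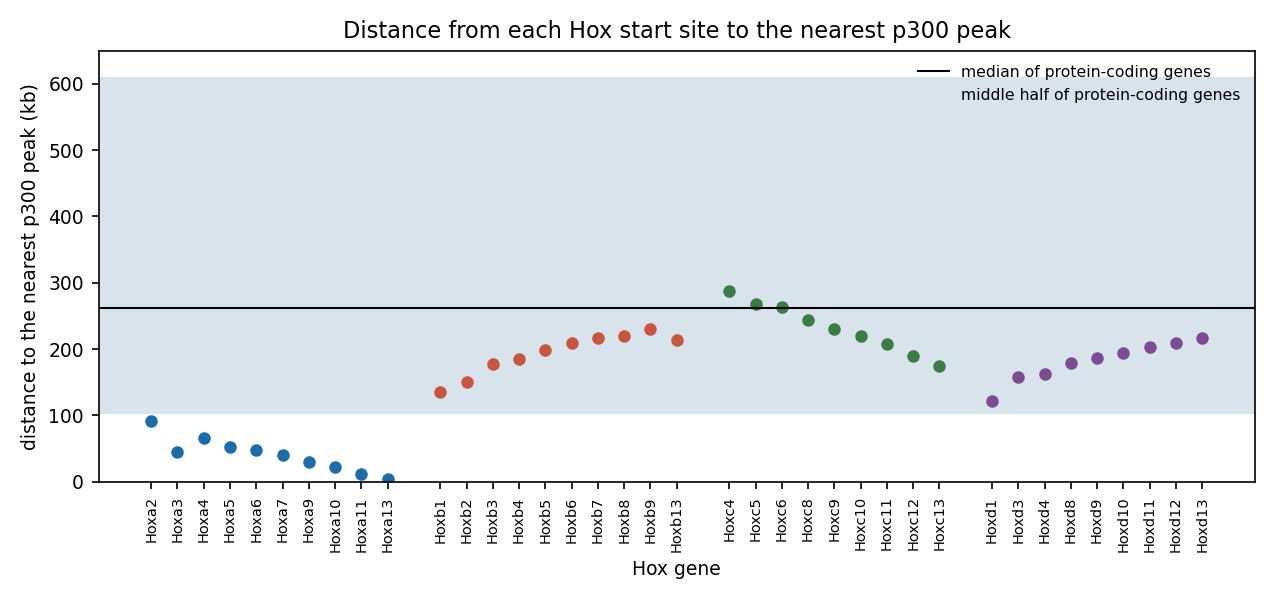
Distance from the start site of each of the 38 Hox genes to the nearest p300 peak midpoint (kb, 1 point per gene, coloured by cluster and ordered by paralog number). The line at 262.1 kb is the median of protein-coding genes and the band is their quartiles, 103.9 to 609.1 kb; HoxA points lie below the band and only Hoxc4, Hoxc5 and Hoxc6 lie above the line.

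Across all 38 genes the nearest peak was a median of 185.7 kb away, against 262.1 kb for protein-coding genes, a difference that was not tested. Within 50 kb of a peak were 7 genes, all in HoxA and all through the 1 Hoxa13 peak, and 12.8% of coding genes. Of the Hox genes, 28 (73.7%) had none within 100 kb, against 75.8% of coding genes. These distances repeat 1 value per peak many times, since 5 peaks serve all 38 start sites, so the genes are not separate measurements. The stretches free of peaks around the clusters were longer than the median gap of 128.1 kb, at 519.098 kb at HoxB, 431.748 kb at HoxD and 373.126 and 309.388 kb on either side of the Hoxa13 peak. Of 6609 gaps between neighbouring midpoints in the genome, 21.1%, 24.5%, 27.4% and 31.1% are at least as long, and 10.7% are as long as the open stretch at HoxC. A locus falls in a gap in proportion to its length, and by length such gaps make up 73.6%, 77.9%, 81.0% and 84.3% of all gap sequence, and 54.9% for HoxC.

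Gene by gene, 0 of 38 Hox genes differed from random placement within 250 kb, and 0 had an unadjusted p below the threshold. Each window had 1.30 peaks expected. 3 genes had 0 peaks, 30 had 1, Hoxd9, Hoxd10 and Hoxd11 had 2, and Hoxd12 and Hoxd13 had 3. Adjusted p ran from 0.842 to 1 (two-sided exact binomial test, Benjamini-Hochberg over 22367 coding genes), while 2.04% of coding genes were called with more peaks than expected and 0% with fewer. With this few peaks no gene could be called low, because a window with 0 peaks had p = 0.645 in the exact binomial test. Having 0 peaks was less frequent among Hox genes (7.89%) than among coding genes (51.6%), but the 35 Hox genes with a peak draw on only 7 peaks. In the nearer range of 100 kb the shares with 0 were alike, 73.7% and 75.8%.

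**Figure D3:**
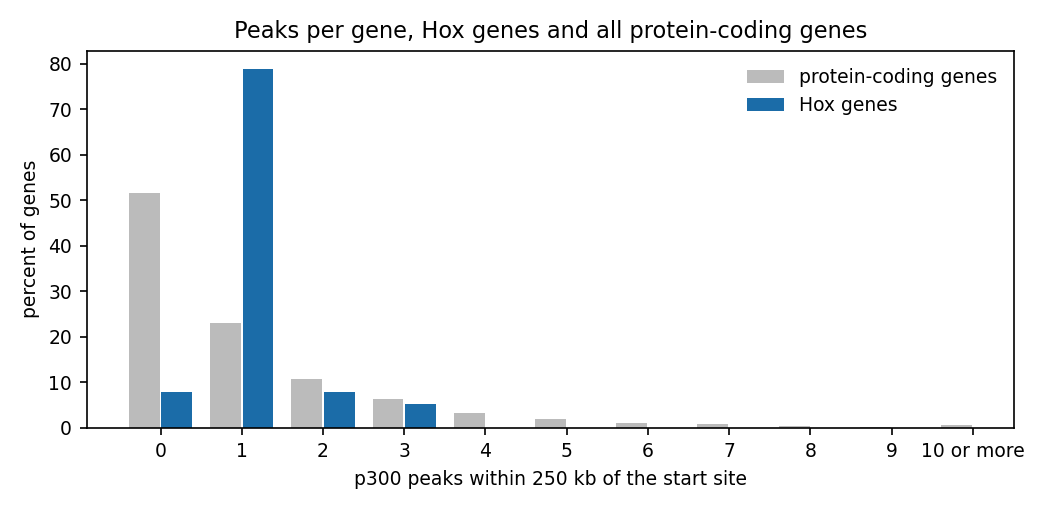
Number of p300 peaks within 250 kb of the start site (x axis) against the percent of genes with that number, for 38 Hox genes and 22367 protein-coding genes. Most Hox genes hold 1 peak and none more than 3, whereas 51.6% of coding genes hold 0 and the highest holds 28.

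Regulatory domains, stretches drawn between neighbouring genes, likewise gave no Hox gene a count past its expectation by the test. Because Hox genes are crowded, their domains were short, with a median of 17.4 kb (range 6.001 to 142.136 kb) against 89.4 kb for coding genes. 36 held 0 peaks, and the domains of Hoxa11 and Hoxa13, which overlap, held the Hoxa13 peak. 0 Hox genes had more peaks than the length of the domain predicts (one-sided exact binomial test, 0 with an unadjusted p below the threshold), against 1.14% of coding genes. With 78.7% of coding domains empty and Hox domains this short, few peaks could be assigned to Hox genes by this rule.

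The genes that border the clusters had counts in the same range. Evx1 and Evx2, homeobox genes that sit at the posterior ends of HoxA and HoxD, had 1 and 3 peaks within 250 kb, and Skap2, on the opposite side of HoxA, had 3. Ttll6 and Skap1 on either side of HoxB had 1 each, Calcoco1 and Smug1 beside HoxC had 2 and 0, and Mtx2 beside HoxD had 1. None of these passed the two-sided exact binomial test (adjusted p = 0.842 or 1), for which 2.04% of coding genes were called with more peaks. The domains of Evx2 (80.609 kb) and Smug1 (200.118 kb) held 0 peaks, whereas that of Skap2 (632.415 kb) held 3 against 1.64 expected and that of Evx1 (373.508 kb) held 2 against 0.968. Hox windows held 11 to 18 coding start sites (median 14.5), a count that includes the Hox genes of the cluster. The median for coding genes was 9, with quartiles of 5 and 16. CpG was also denser in Hox windows, with a median of 14.5 per kb against 10.4.

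Farther out, between 500 kb and 1 Mb, HoxB and HoxD each had 8 p300 peaks around them, above random placement, whereas HoxC had 1. The distance bands were chosen after the peaks had been seen, and no p is attached to them. From 0 to 100 kb the 4 clusters together held 1 peak against 3.30 expected (interval 0.0253 to 5.57), from 100 to 250 kb 6 against 3.11 (2.20 to 13.1), from 250 to 500 kb 9 against 5.18 (4.12 to 17.1) and from 500 to 1000 kb 23 against 9.41 (14.6 to 34.5). For the clusters together, the outermost band was the only one whose interval left out its expected value, at a ratio of 2.45. It held 8 peaks around HoxB and 8 around HoxD, against 2.59 expected for each (interval 3.45 to 15.8), and 6 around HoxA, whose interval of 2.20 to 13.1 includes the 2.59 expected. HoxC, where the end of the chromosome shortens the band, held 1 against 1.63. HoxA had its excess nearer in, with 5 peaks from 250 to 500 kb against 1.30 (interval 1.62 to 11.7). Near HoxA 4 of the 6 lie within Jazf1, near HoxB 4 of the 8 lie between Copz2 and Cdk5rap3, and near HoxD 6 of the 8 lie between Chn1 and Lnp, so these peaks are nearer to other genes than to Hox genes.

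**Figure D4:**
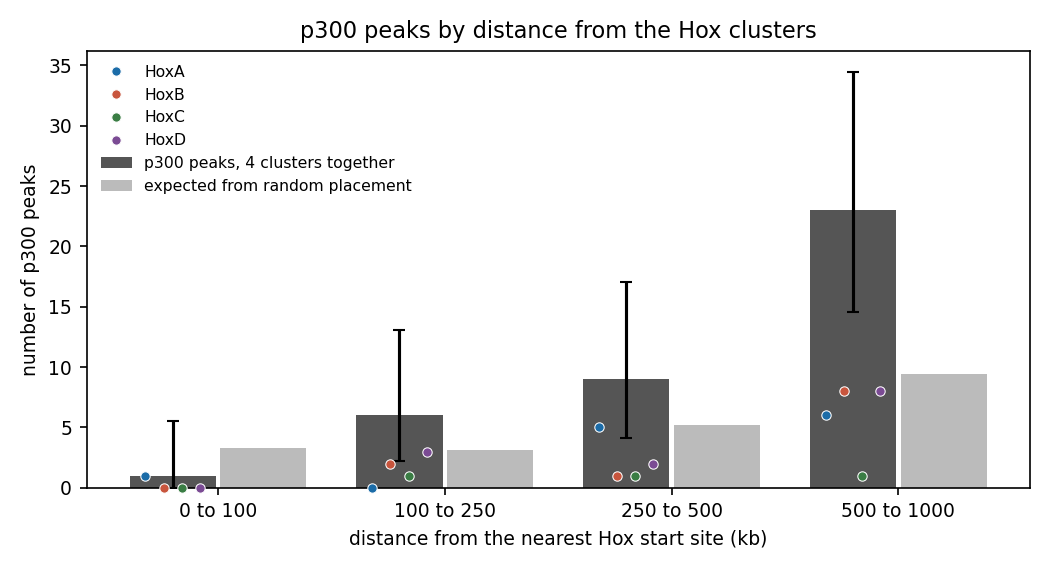
Number of p300 peaks (y axis) by distance from the nearest Hox start site (x axis, kb), for the 4 clusters together (dark bars, with exact 95% Clopper-Pearson intervals) and for random placement (light bars); dots give each cluster. The dark bar is below the light one from 0 to 100 kb (1 against 3.30) and above it in the other bands, up to 23 against 9.41.

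Tested over all coding genes, the 9 HoxD genes, from Hoxd1 to Hoxd13, passed the threshold within 1 Mb, each with the same 13 peaks against 5.18 expected (ratio 2.51, adjusted p = 0.0396, two-sided exact binomial test), against 6.87% of coding genes called with more peaks. The 10 HoxA genes had 11 or 12 peaks (adjusted p from 0.0564 to 0.0907), the HoxB genes 10 or 11 (0.0907 to 0.152) and the HoxC genes 3 (0.787 to 0.893). The HoxD call rests on 1 set of 13 peaks and is not 9 results. It was lost by the exact binomial test when peaks under 5 kb apart were joined (12 peaks, ratio 2.51, adjusted p = 0.0628), when only peaks of median width or wider were kept (8 peaks, ratio 3.08, adjusted p = 0.101) and when the density of the own chromosome set the expectation (13 peaks against 6.49, adjusted p = 0.113). With joined or wide peaks the ratio itself did not fall. Under the last alternative, Hoxa10, Hoxa11 and Hoxa13 passed instead.

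Genes that work with or upon the Hox genes carried more peaks in some cases. Among 9 genes of Hox cofactors, the TALE homeodomain proteins that bind DNA beside Hox proteins, the median was 3 peaks within 250 kb. Pbx3 had 9 (adjusted p = 0.00109) and Pknox1 8 (0.00489), both higher than random placement by the two-sided exact binomial test over coding genes, while Pbx2 and Pbx4 had 0. Meis2 had 6 and did not pass the exact binomial test (adjusted p = 0.0707). Of 16 Polycomb subunit genes, with a median of 1.5, Cbx2 and Cbx8 passed with 8 peaks each, but these are neighbours on chromosome 11 and share peaks. None of 18 genes that feed into Hox clusters passed; this list holds retinoic acid receptors and enzymes, Cdx genes, hindbrain regulators and chromatin factors, its median was 1 and its highest value was 4, at Rxra. The 6 ParaHox genes, relatives of the Hox genes outside the clusters, had a median of 1.5 with 0 called. The background for these counts is the 2.04% of coding genes given above.

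Genes of the dorsal cerebral wall itself had the highest medians among the gene lists compared. Of 23 cortical transcription factor genes, 9 were called with more peaks than random placement, against 2.04% of coding genes, and the median was 4. Neurog2, a proneural factor, had 15 peaks (adjusted p = 1.63e-08, exact binomial test), Neurod6 11, and Emx1, Neurod2 and Sox2 10 each. Bcl11a, Pou3f2 and Zbtb20 had 0 within 250 kb, fewer than most Hox genes. The median distance to the nearest peak was 19.7 kb for this list, against 185.7 kb for the Hox genes. All 9 dorsal markers had a peak within 250 kb (2 to 10, median 5), as did 48.4% of coding genes. The 5 ventral telencephalon markers had a median of 2, with 0 at Nkx2-1 and Lhx6, 2 at Dlx1 and Dlx2 and 3 at Gsx2. Because the gene lists were chosen with earlier results of these data known, these counts do not test the dissection. The ranges of both lists overlap, since the dorsal marker Emx2 had 2.

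**Figure D5:**
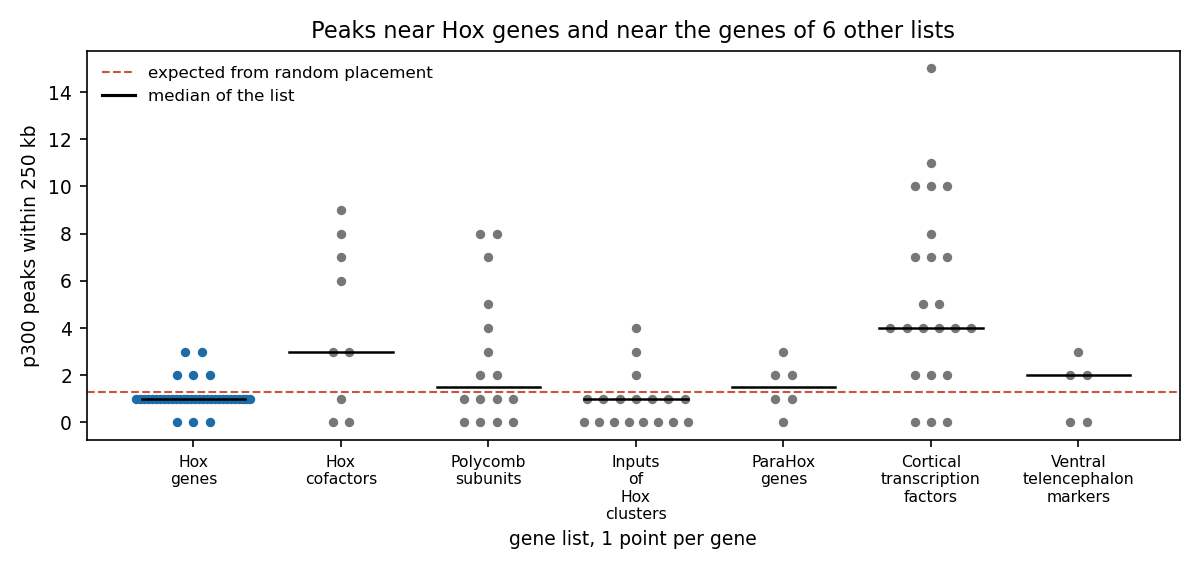
p300 peaks within 250 kb of the start site (y axis, 1 point per gene) for the Hox genes and 6 other gene lists, with the median of each list as a black line and the 1.30 peaks expected from random placement as a dashed line. Hox genes lie between 0 and 3, and cortical transcription factor genes reach 15.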

How the data were processed

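p300 ChIP-seq of the E14.5 dorsal cerebral wall gave 1 ChIP library, and 1 input library that was not analysed here. The authors mapped reads to mm9 with ELAND, kept unique alignments with at most 2 mismatches and called peaks against the input with MACS 1.4 (version from the submitters' processing notes). Their list leaves out promoter regions (2.5 kb on either side of a gene start), exons and sequence where reads may not map to 1 place. The deposited list gives peak positions only, with no score or read count, so the depth behind a peak is unknown. Against the annotation used here, 143 peaks (2.16%) still overlap an exon and 343 (5.17%) lie within 2.5 kb of a start.

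The NCBIM37 sequence (the mm9 assembly) and GENCODE vM1 (37273 genes, 22367 of them protein-coding) were used. Each gene was given the start of the transcript whose coding sequence is longest. Expected counts were the share of assembled bases (2.56 Gb) in a window times 6629. Two-sided exact binomial tests per coding gene used windows of 250 kb and 1 Mb, and one-sided tests used regulatory domains (5 kb upstream to 1 kb downstream, extended by up to 1 Mb to the next basal domain). p-values were Benjamini-Hochberg adjusted, with a threshold of 0.05, over all coding genes. Windows of neighbouring genes overlap. The tests were checked on simulated data. Python 3.11.15 with numpy 2.4.6, scipy 1.17.1, numba 0.67.0 and matplotlib 3.10.9 was used.

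The Hox genes and gene lists were chosen with earlier results of these data known. Named were all Hox genes, genes flanking a cluster or nearest to a peak, and in each list the genes with most and fewest peaks. Meis2 was named after its value was seen. Some genes that this rule covers are not reported here. Alternatives changed the distance, the space of the placement, the peaks counted, the genes, the domains and the start sites. The distance of 1 Mb was listed at the outset beside that of 250 kb, but its Hox calls were taken up after seeing the data, and so were the other settings tried on them, the distance bands and the placement with widened exons.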

Additional observations from a re-analysis of the deposited data

How the results depend on the processing

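Each cluster's ratio to random placement was recomputed under 11 alternatives, 55 values with the 4 clusters together included, and 50 stayed within the counting interval of the value reported. These intervals are wide: HoxA went from 0.648 to 2.11 within 500 kb and 2.21 within 1000 kb inside its own, and the clusters together from 1.09 to 1.86 within 1000 kb (39 peaks, interval 27.8 to 53.3, against 21.0 expected). The ratio fell to 0 for HoxB, HoxC and HoxD and to 0.303 for the clusters together within 100 kb, and to 0 for HoxA when start sites and exons widened by 508 bp were left out. Coding genes called within 250 kb numbered 456, against 167 within 100 kb, 914 within 500 kb, 1536 within 1000 kb, 244 with peaks under 5 kb apart joined and 794 over all annotated genes. Calls from regulatory domains went from 255 to 158 with joined peaks and 154 with peaks of median width or wider. Hox genes with 0 peaks went from 3 to 28 within 100 kb and to 0 within 500 and 1000 kb, and to 8 within 250 kb with wide peaks only. The median distance to the nearest peak rose from 185.7 to 212.9 kb with wide peaks only. The 9 HoxD calls within 1 Mb fell to 0 with joined peaks and to 0 with wide peaks, with HoxD ratios of 2.51 and 3.08 against 2.51, and stayed 9 over all annotated genes; with the density of the own chromosome 3 Hox genes, all in HoxA, were called. The cause of these changes was not tested. The list holds no score, so a stricter threshold could only be approached by width, and 6629 peaks give 1.30 per window, too few to call a lack of peaks. No paired analysis was possible because there is 1 library of each kind.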
